A study of Mus musculus with 12 samples.

Results

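The genes described here are 10 genes of the classical complement pathway and of the receptors for its anaphylatoxins, the small fragments released when complement proteins are cut. They were taken by name from a table of 57073 gene models, each name had 1 row, and all 10 were found: C1qa (ENSMUSG00000036887), C1qb (ENSMUSG00000036905), C1qc (ENSMUSG00000036896), C1ra (ENSMUSG00000055172), C1s1 (ENSMUSG00000038521), Serping1 (ENSMUSG00000023224), C3 (ENSMUSG00000024164), C4b (ENSMUSG00000073418), C3ar1 (ENSMUSG00000040552) and C5ar1 (ENSMUSG00000049130). RNA was sequenced from retina of C57BL/6 mice at postnatal day 17, in 6 libraries labelled normoxic air and 6 labelled 75% oxygen and OIR, for oxygen-induced retinopathy. High oxygen prunes the capillaries of the growing mouse retina, which is then starved of oxygen in room air and sprouts abnormal vessels. The labels name neither the days of oxygen exposure nor an allele or agent beyond the oxygen, and they do not say whether a library is 1 animal or a pool, so each p-value reflects only how far these libraries spread, in part perhaps for technical reasons.

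Complement is a cascade of blood and tissue proteins that tags surfaces for removal. In the classical branch the recognition molecule C1q, built from A, B and C chains, activates the proteases C1r and C1s. C1s cuts C4 and C2 to form the enzyme that cuts C3, and the C1 inhibitor blocks C1r and C1s. The fragments C3a and C5a act through the receptors C3aR and C5aR1 on myeloid cells. In neural tissue C1q is known as a product of microglia and macrophages, and complement as a mark of synapses and debris to be cleared.

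The depth was 17361979 to 21594618 counts per library. Retinal neuron markers had the highest summed FPKM of the marker lists, at 8456 to 9529.6 FPKM in normoxic and 9133 to 10250.1 FPKM in OIR libraries. FPKM is a count scaled to gene length and library depth, and the deposited values were used. OIR replicate 6 was the lowest OIR library in each C1q chain gene, as given below. Earlier results of these data part the normoxic libraries numbered 1 to 3 from those numbered 4 to 6. Values are therefore also given within these numbers. The labels do not call the sets of numbers batches.

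Levels are given as CPM, the count scaled to library depth. All 10 genes rose in OIR by edgeR's quasi-likelihood test with Benjamini-Hochberg adjustment over the 18275 genes tested, of which 31% changed at an adjusted p under 0.05, 16.2% upward and 14.8% downward. In 9 of the 10, every OIR library was above every normoxic one, where the same held for 9.47% of the genes tested (16.1% counting either direction). C1s1 was the exception. A rise of at least 2-fold was found in 9 of the 10, against 4.9% of the genes tested, and the median log2 fold change of the 10 was 2.10 beside -0.01 over all genes tested. The genes were proposed with results of these data known, so these counts describe the genes and are no independent evidence. C1ra, C3ar1 and C5ar1 passed the filter on low counts only with the help of their OIR libraries, since 5, 3 and 0 of their 6 normoxic libraries reached its level. In bulk retina, more cells of a type cannot be told apart from more RNA per cell.

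**Figure D1:**
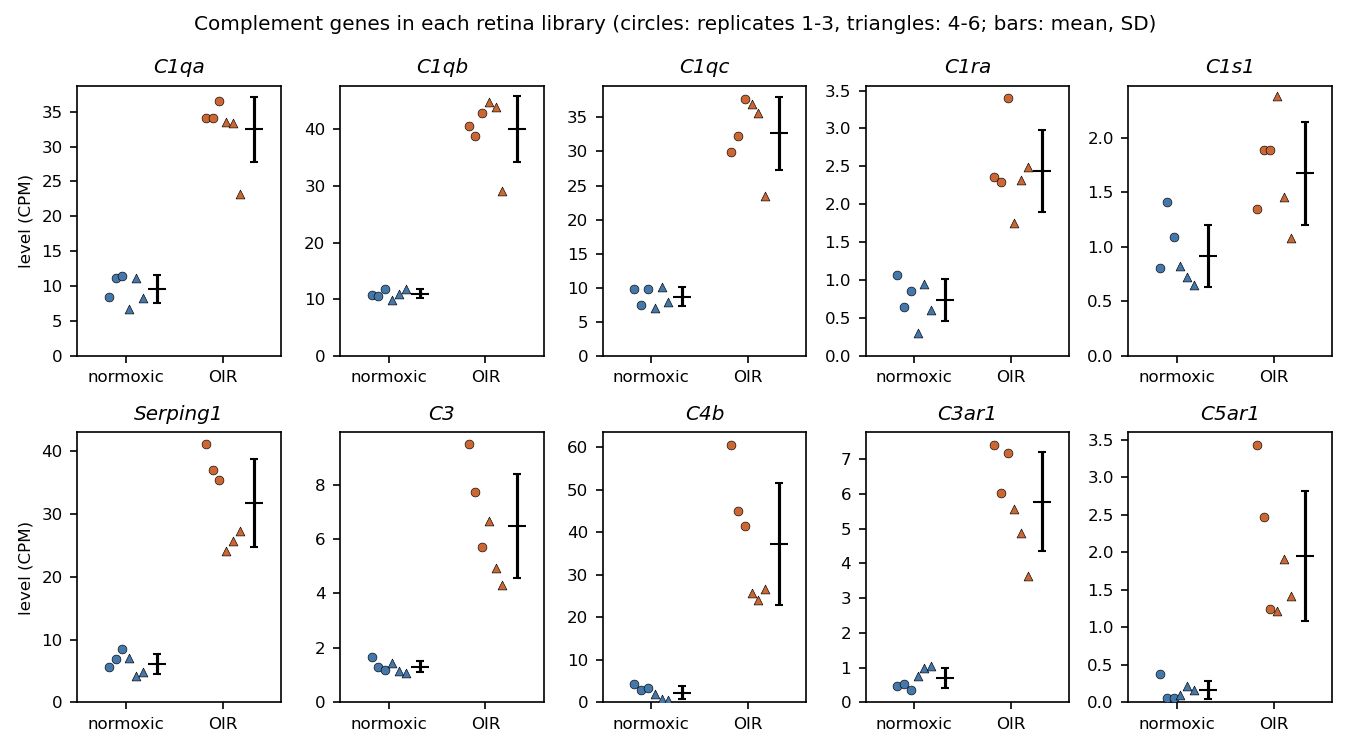
Level of each of the 10 genes in CPM (vertical axes starting at 0 and scaled to each gene) in the 6 normoxic and 6 OIR libraries. Circles are replicates 1 to 3, triangles replicates 4 to 6, and bars the mean and SD; in each gene but C1s1 every OIR point is above every normoxic point.

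The promoters of the neighbouring C1q genes are shown first, since the 3 chains rose together. C1qb, C1qc and C1qa lie in a row on the minus strand of chromosome 4 within 18675 bases (C1qb 136607440 to 136613498, C1qc 136617115 to 136620376 and C1qa 136623228 to 136626114, in build GRCm39 of the table). RefSeq windows of build GRCm38.p6 were matched by symbol for 7 of the 10 genes. No window of C1qa, Serping1 or C4b was used here. C1qb and C1qc are printed because theirs hold the motif below, with the 250 bases before the start site at chr4:136886201-136886450 and chr4:136892915-136893164, both on the minus strand. Capitals mark GAGGAA on either strand, the core letters bound by the myeloid transcription factor PU.1.
C1qb: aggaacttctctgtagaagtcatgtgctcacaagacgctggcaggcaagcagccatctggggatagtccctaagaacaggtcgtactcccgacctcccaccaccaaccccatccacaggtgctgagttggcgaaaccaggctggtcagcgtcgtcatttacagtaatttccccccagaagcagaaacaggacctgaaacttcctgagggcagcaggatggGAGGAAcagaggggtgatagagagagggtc
C1qc: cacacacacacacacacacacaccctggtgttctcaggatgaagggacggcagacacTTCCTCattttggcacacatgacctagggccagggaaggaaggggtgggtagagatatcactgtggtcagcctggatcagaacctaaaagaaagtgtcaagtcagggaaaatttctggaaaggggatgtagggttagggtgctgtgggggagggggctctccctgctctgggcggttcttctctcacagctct

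In C1qb the match begins 30 bases before the start site (offset -30) on the strand of the gene, and in C1qc at offset -193 on the other strand. GAGGAA was in 2 of the 8 windows of the 7 genes, and in 23.3% of the 32851 windows of this length. None of the 8 windows held TTCNNNGAA, a STAT pattern, ACGTG, a core pattern of hypoxia response elements, or the interferon-stimulated response element pattern. These patterns were in 7.02%, 16.6% and 2.98% of all windows. Other forms of the hypoxia core were not searched. Matches in either orientation were counted, with overlaps allowed, and a match or its absence in this window says nothing of binding.

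C1qa, which encodes the A chain of the recognition molecule, ranged from 6.69 to 11.5 CPM in normoxic libraries (median 9.82) and from 23.2 to 36.5 CPM in OIR libraries (median 33.8). The lowest OIR library, replicate 6, was still above the highest normoxic one. The rise was 3.41-fold (log2 1.77 ± 0.13 SE, n = 6 in each group, edgeR adjusted p = 1.2e-08). C1qb, the B chain gene, had the tightest normoxic group of the 3, at 9.87 to 11.9 CPM (median 10.8), and 29.2 to 44.8 CPM in OIR (median 41.8). Its log2 fold change was 1.87 ± 0.10 (SE), a 3.66-fold rise with an edgeR adjusted p of 9.7e-11. C1qc, the C chain gene, went from 7.10 to 10.2 CPM in normoxic (median 8.83) to 23.5 to 37.7 CPM in OIR libraries (median 34.0), for a log2 fold change of 1.91 ± 0.12 (SE, edgeR adjusted p = 1.9e-09).

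OIR replicate 6 was the lowest OIR library in each C1q chain gene, at 23.2 CPM for C1qa, 29.2 CPM for C1qb and 23.5 CPM for C1qc, where the other 5 began at 33.4, 38.8 and 29.9 CPM. It was also the lowest OIR library for Csf1r, the receptor gene of microglia and macrophages, at 27.6 against 29.3 CPM or more. Relative to Csf1r it was still the lowest OIR library in each chain gene. The log2 ratios to Csf1r were -0.25, 0.08 and -0.23, where the other 5 began at 0.01, 0.30 and -0.14. The reason was not tested. Without OIR replicate 6 the log2 fold changes of the chain genes were 1.85 ± 0.11, 1.95 ± 0.07 and 1.99 ± 0.10 (SE).

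The chains kept similar proportions. C1qa made up 33.5 to 44.2% of the summed FPKM of the 3 genes in normoxic and 34.8 to 38.5% in OIR libraries, C1qb 38.5 to 47.5% and 41.8 to 44.5%, and C1qc 16.0 to 22.1% and 18.1 to 20.7%. The ranges of the groups overlapped for each chain.

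C1ra and C1s1 encode the proteases that C1q activates, and both were scarce. C1ra (chromosome 6, 124489364 to 124500402, GRCm39) was at 0.309 to 1.07 CPM in normoxic (median 0.754) and 1.75 to 3.41 CPM in OIR libraries (median 2.34), for a log2 fold change of 1.72 ± 0.26 (SE, edgeR adjusted p = 6.4e-05). The groups did not overlap. C1s1 (chromosome 6, 124507304 to 124519318), which lies 6901 bases from C1ra, was at 0.654 to 1.41 CPM in normoxic (median 0.814) and 1.08 to 2.39 CPM in OIR libraries (median 1.67). Its groups overlapped, normoxic replicate 2 being above OIR replicates 1 and 6. The log2 fold change of C1s1 was 0.87 (95% interval 0.33 to 1.41) with an edgeR adjusted p of 0.0153, the smallest change and the weakest call of the 10.

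Both proteases have a near copy in mouse, C1rb and C1s2, and reads in shared stretches could be split or dropped in counting. Of the 50-base words of the C1ra transcript, 48% also occur in C1rb transcripts, and 24.3% of those of C1s1 occur in C1s2 (GENCODE transcripts of build GRCm38). C1rb had 1 count over the normoxic and 4 over the OIR libraries, against 81 and 273 of C1ra. C1s2 had 33 and 23 counts, against 101 and 187 of C1s1. With the counts of each pair summed, C1ra kept a log2 fold change of 1.73 ± 0.26 (SE, edgeR adjusted p = 6.4e-05), while C1s1 had 0.63 ± 0.25 and was not past the test (adjusted p = 0.0661). The call of C1s1 is therefore uncertain. It was also lost within replicate numbers 1 to 3 (edgeR adjusted p = 0.165) and within 4 to 6 (edgeR adjusted p = 0.055), where the other 9 genes stayed called, beside 20.3% and 11.6% of the genes tested that rose there.

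Serping1 encodes the C1 inhibitor (chromosome 2, 84595731 to 84605788, GRCm39). Its level was 4.22 to 8.46 CPM in normoxic (median 6.26) and 24.1 to 41.1 CPM in OIR libraries (median 31.4), 5.14-fold higher (log2 fold change 2.36 ± 0.16 SE, edgeR adjusted p = 5.9e-09). The OIR libraries fell into 2 separate ranges, 35.5 to 41.1 CPM in replicates 1 to 3 and 24.1 to 27.3 CPM in replicates 4 to 6. The changes within these numbers were 2.44 ± 0.12 and 2.25 ± 0.16 (SE), and the edgeR test of their difference gave an adjusted p of 0.652.

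C4b, which encodes the C4 protein cut by C1s (chromosome 17, 34947354 to 34962856), had the largest log2 fold change of the 10, and 0.0766% of the genes tested had a larger one. It was at 0.654 to 4.40 CPM in normoxic (median 2.36) and 24.0 to 60.4 CPM in OIR libraries (median 34.1). The rise was 16.0-fold, for a log2 fold change of 4.00 ± 0.33 (SE, edgeR adjusted p = 4.3e-08). Replicates 1 to 3 were above replicates 4 to 6 in both groups, at 2.82 to 4.40 against 0.654 to 1.90 CPM in normoxic and 41.5 to 60.4 against 24.0 to 26.7 CPM in OIR. Within numbers 1 to 3 the log2 fold change was 3.80 ± 0.15 and within 4 to 6 it was 4.47 ± 0.23 (SE). The difference between them was 0.67 ± 0.33 (SE) and did not pass the edgeR test (adjusted p = 0.227).

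C4a, a near copy of C4b listed by RefSeq as a transcribed pseudogene (chromosome 17, 35028069 to 35042440, GRCm39), had 520 counts in normoxic and 543 in OIR libraries. Its log2 fold change was 0.05 ± 0.18 (SE, edgeR adjusted p = 0.876). The transcripts of C4b share 35.2% of their 50-base words with C4a, so the split of reads between them is uncertain. With both summed the log2 fold change was 2.58 ± 0.23 (SE, edgeR adjusted p = 1.3e-07) beside 4.00 for C4b alone.

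C3 encodes the protein on which all branches meet (chromosome 17, 57510970 to 57535136). It went from 1.09 to 1.66 CPM in normoxic (median 1.25) to 4.31 to 9.49 CPM in OIR libraries (median 6.19), 4.91-fold higher (log2 fold change 2.30 ± 0.20 SE, edgeR adjusted p = 1.2e-07). The spread among OIR libraries (SD 1.92 CPM) was wider than among normoxic ones (SD 0.211 CPM), and OIR replicate 1 was the highest.

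C3ar1, the receptor gene for C3a (chromosome 6, 122824097 to 122833120), was near the limit of counting in normoxic libraries, at 0.343 to 1.04 CPM (median 0.657), which is 6 to 19 counts per library. In OIR libraries it was at 3.63 to 7.41 CPM (median 5.79). The log2 fold change was 3.04 ± 0.25 (SE), an 8.24-fold rise with an edgeR adjusted p of 4.8e-08. The sets of replicate numbers differed in opposite directions in the groups: normoxic replicates 1 to 3 were at 0.343 to 0.542 CPM, below replicates 4 to 6 at 0.771 to 1.04 CPM, while OIR replicates 1 to 3 were at 6.02 to 7.41 CPM, above replicates 4 to 6 at 3.63 to 5.57 CPM. The log2 fold change was 3.89 ± 0.28 within 1 to 3 and 2.32 ± 0.29 within 4 to 6 (SE), so the rise held in both. Their difference of -1.57 ± 0.41 (SE) passed the edgeR test (adjusted p = 0.0196). C3ar1 was the only one of the 10 to do so, which is near the 8.21% of the genes tested that did. The sets of numbers were taken up because earlier results of these data part the normoxic libraries by them, so the test is no independent evidence.

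C5ar1, the receptor gene for C5a (chromosome 7, 15980668 to 15993465), had 1 to 7 counts in each normoxic library, 18 in all, and 23 to 61 counts in each OIR library, 212 in all. The ratio of counts scaled to library size was 11.7, with a 95% counting interval of 7.25 to 20.2 that covers counting error only. Its log2 fold change was 3.52 ± 0.42 (SE, edgeR adjusted p = 4.1e-06), and the groups did not overlap, with 0.0542 to 0.375 CPM in normoxic (median 0.133) and 1.22 to 3.43 CPM in OIR libraries (median 1.67). Normoxic replicate 1 held 7 of the 18 counts, and without it the log2 fold change was 3.94 ± 0.44 (SE).

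**Figure D2:**
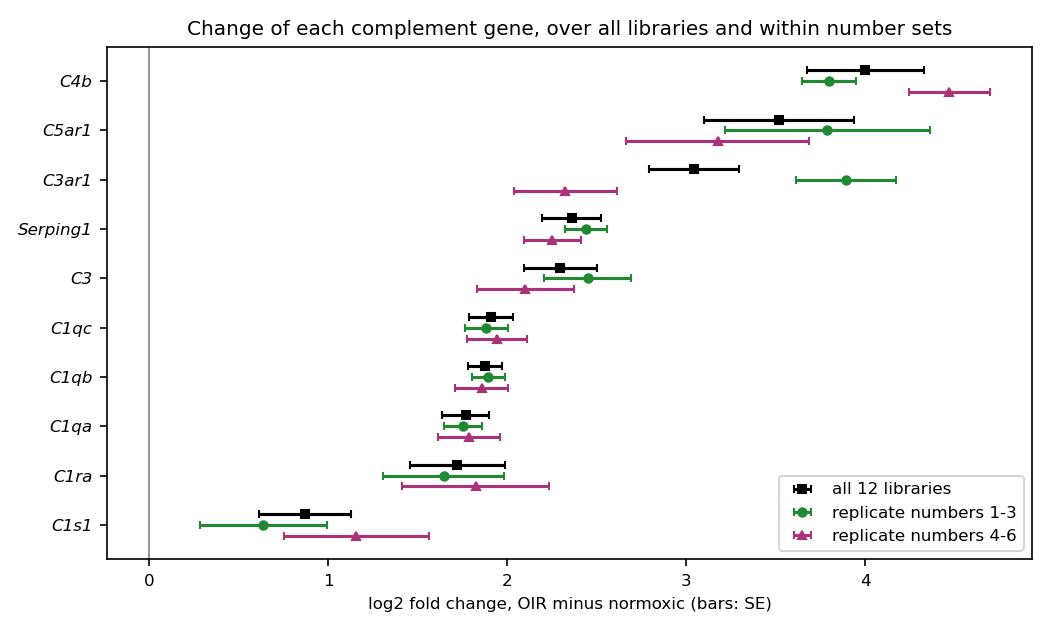
Log2 fold change (OIR minus normoxic, horizontal axis, bars SE) of each gene over all 12 libraries (squares), within replicate numbers 1 to 3 (circles) and within 4 to 6 (triangles). All points lie right of 0, and the circle and triangle of C3ar1, at 3.89 and 2.32, are the pair that passed the test of their difference.

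Per gene length, the C1q chains were the most abundant of the 10 genes. In normoxic libraries the median levels were 9.88 FPKM for C1qb and 9.42 FPKM for C1qa, which overlapped, then 4.55 FPKM for C1qc and 2.69 FPKM for Serping1, each apart from its neighbours. C4b (0.417 FPKM), C1s1 (0.259), C1ra (0.255), C3 (0.245), C3ar1 (0.153) and C5ar1 (0.0519) followed, and each overlapped the next. In OIR libraries the order began with C1qb (38.5 FPKM) and C1qa (32.5 FPKM), which overlapped. C1qc (17.5 FPKM) was apart from C1qa and was followed by Serping1 (13.4) and C4b (5.94), each overlapping the next. C3ar1 (1.35 FPKM) was apart from C4b and was followed by C3 (1.21), C1ra (0.781), C5ar1 (0.637) and C1s1 (0.533), again each overlapping the next. C1s1 thus went from the sixth place to the last. The deposited FPKM does not follow the length column of the table for every gene, and with counts divided by that column C1s1 was already in the ninth place in normoxic libraries.

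Myeloid markers moved with these genes. All 10 genes of a pan-myeloid list rose, and their summed level was 54.8 to 59.4 CPM in normoxic and 110.5 to 130.5 CPM in OIR libraries. Ctss, Fcer1g and Cd68, the 3 with the highest mean FPKM over both groups, rose 1.90-fold, 1.58-fold and 2.77-fold by edgeR (adjusted p = 2.0e-07, 0.00726 and 1.9e-07). The groups overlapped for Fcer1g. Of 10 homeostatic microglia markers 7 rose and none fell (summed level 43.6 to 56.4 against 81.7 to 99.4 CPM). Of these, Fcrls rose 2.57-fold and Olfml3 1.52-fold (edgeR adjusted p = 1.5e-04 and 2.0e-04), while the microglia markers P2ry12, Tmem119 and Siglech did not pass. Of 10 markers of monocytes and border macrophages, 5 were tested, Mrc1, F13a1, Plac8 and Pf4 rose and Lyve1 fell. The 4 that rose passed the filter on low counts through their OIR libraries, since at most 1 of their 6 normoxic libraries reached its level. Mrc1 had 6 normoxic and 373 OIR counts, and Cd163 had 0 and 63. The neutrophil list, at 0.206 to 0.629 CPM summed in normoxic and 0.348 to 2.81 CPM in OIR libraries, had no tested member. The part of these cells in the changes above was not tested.

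Set against Csf1r, which itself rose 1.95-fold (edgeR adjusted p = 1.2e-08), the C1q genes were still higher in OIR. Ratios were taken in CPM in each library, on the log2 scale, and were not tested. C1qa was at -1.38 to -0.31 relative to Csf1r in normoxic and at -0.25 to 0.21 in OIR libraries, so the mean ratio was 1.76-fold higher. For C1qb it was 1.87-fold and for C1qc 1.93-fold higher. Serping1 (2.66-fold), C3 (2.48-fold), C3ar1 (4.49-fold), C5ar1 (7.27-fold) and C4b (9.65-fold) also had ratios that did not overlap between groups, while those of C1ra and C1s1 overlapped. These 8 of 10 compare with 1.33% of the genes tested whose ratio to Csf1r was higher without overlap. Among the 8, C3ar1 and C5ar1 passed the filter on low counts only with the help of their OIR libraries. The genes were proposed with results of these data known, so this count and those below are no independent evidence. C5ar1 rests on 1 to 7 normoxic counts per library. With 0.5 CPM added to each value, a choice made after seeing the data, its ratio was 1.86-fold higher and overlapped. The ratio of C3ar1 was then 2.74-fold higher, and the count was 7 (1.06% of the genes tested). With the mean of the homeostatic list as the denominator the count was 8 (1.94% of the genes tested). With the pan-myeloid mean it was 6 (0.865%), and C1qa and C1qc then overlapped too.

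**Figure D3:**
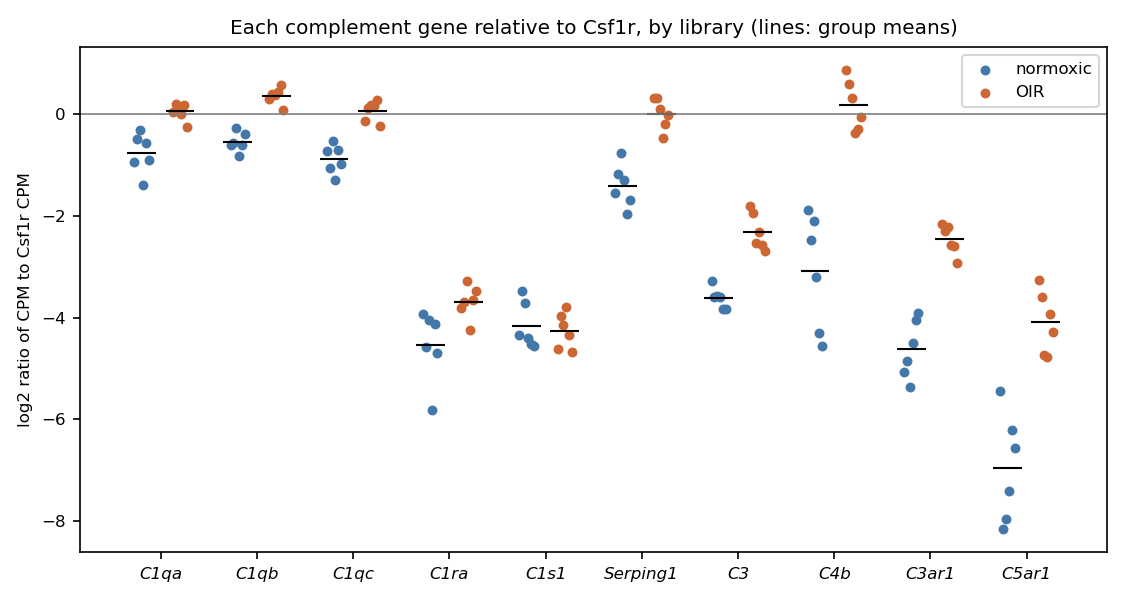
Log2 ratio of the CPM of each gene to that of Csf1r (vertical axis) in the 6 normoxic and 6 OIR libraries, with lines at the group means. The groups are apart for the C1q chains, Serping1, C3, C4b, C3ar1 and C5ar1 and overlap for C1ra and C1s1.

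Markers of other cells that can make C3, C4 and the C1 inhibitor moved as well. Of 6 astrocyte markers 5 rose and none fell (summed level 40.6 to 67.0 against 232 to 400.1 CPM), led by Gfap, the intermediate filament gene of astrocytes and stressed Muller glia, which rose 13.7-fold (edgeR adjusted p = 4.7e-11). Of 10 Muller glia markers 2 rose and 5 fell (3565 to 4091 against 2961 to 3786 CPM). Of 8 fibroblast markers the 5 tested rose, with Col3a1 and Col1a2 at 4.78-fold and 1.97-fold, while Dcn and Lum, defining genes of fibroblasts, had 23 and 4 counts in normoxic and 30 and 1 in OIR libraries. Pdgfra is in both the astrocyte and the fibroblast list. Pericyte markers rose in 8 of 8 and endothelial markers in 9 of 10. Alb, the defining transcript of liver, the main source of plasma complement, had 1 count over all 12 libraries. Lens markers went the other way, with 4 of the 8 tested lower in OIR and a summed level of 8.02 to 49.6 against 2.44 to 15.4 CPM. No pigment epithelium marker passed. The summed level of these markers varied widely among normoxic libraries, at 16.9 to 141.5 CPM, against 56.5 to 112.1 CPM in OIR libraries. With the mean lens level as a covariate, 9 of the 10 genes kept their call and C1s1 lost it (edgeR adjusted p = 0.35), while 8.89% of the genes tested rose. The lens level itself differed between the groups, so this fit cannot fully tell lens apart from the group. The parts of glia, vessels, pigment epithelium and lens in the changes were not tested.

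Within groups, some of the genes went up and down together across libraries. Pearson's r was computed on deviations of log2(CPM + 1) from the group means over 12 libraries, which share depth and the sets of replicate numbers, and is given as a description. It was 0.66 to 0.77 among C1qa, C1qb and C1qc, and 0.79 between Serping1 and C4b, 0.65 between C3 and C4b and 0.69 between C3 and C5ar1. Between a C1q chain gene and Serping1, C3 or C4b it was -0.15 to 0.26. Of the 45 pairs, 7 had an r of at least 0.5, among them C1qa with C1s1 (0.58), while Serping1 with C3 had 0.49. Serping1 and C4b were both higher in OIR replicates 1 to 3 than in 4 to 6, as given above. The part of this in their r was not tested.

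**Figure D4:**
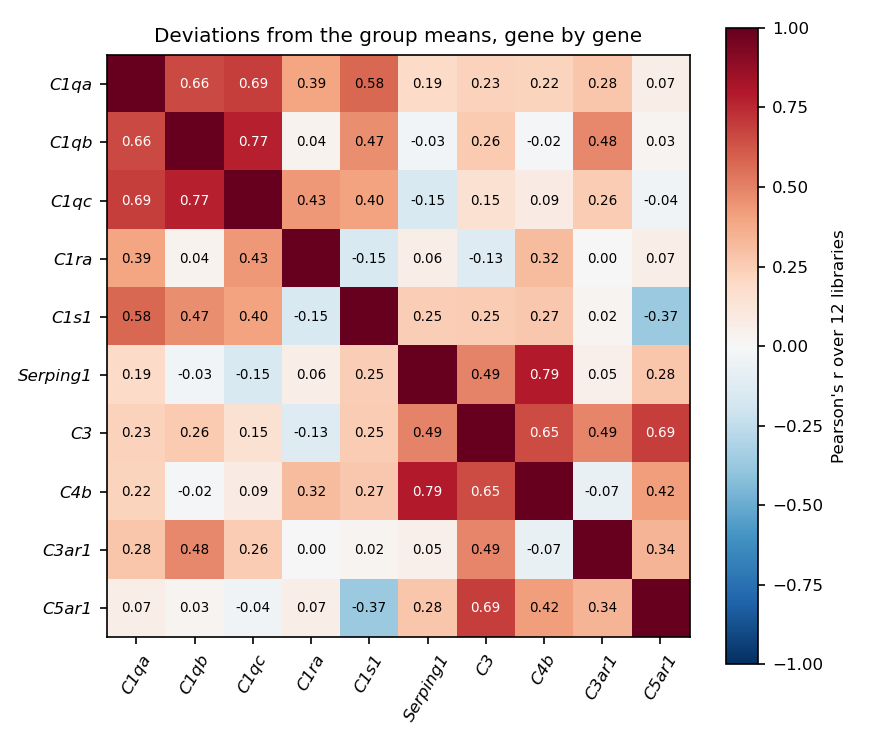
Pearson's r between each pair of the 10 genes, computed over 12 libraries on deviations from the group means (colour scale -1 to 1). The values among the C1q chain genes are 0.66 to 0.77, and those among Serping1, C3 and C4b are 0.49 to 0.79. The lowest of the latter, Serping1 with C3, is close to C3 with C3ar1 (0.49) and C1qb with C3ar1 (0.48). C1qa with C1s1, at 0.58, and C3 with C5ar1, at 0.69, are higher than these.

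Of 46 further complement genes listed, 23 were tested, of which 10 rose, 2 fell and 11 did not pass (16.2% of all genes tested rose and 14.8% fell), their median log2 fold change being 0.15 against -0.01 over all genes tested, and 6 had no count in any library. Among the receptors, Cd93, once described as a C1q receptor and known in endothelium, rose 5.21-fold (edgeR adjusted p = 3.6e-11). Both chains of complement receptor 3 were higher, Itgb2 by 3.58-fold (edgeR adjusted p = 2.2e-05) and Itgam by 2.92-fold (edgeR adjusted p = 5.2e-05). Among lectin pathway and related genes, the collectin gene Colec12 rose 2.17-fold (edgeR adjusted p = 9.4e-05) and C1rl, a C1r-like protease gene, 2.34-fold (edgeR adjusted p = 0.0144). C1rl passed the filter on low counts only through its OIR libraries, and its call was lost with the lens covariate (edgeR adjusted p = 0.201) and within either set of replicate numbers (0.106 and 0.0828). C2, which encodes the partner of C4 in the enzyme that cuts C3, had 63 counts in normoxic and 39 in OIR libraries and did not pass the filter for testing.

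In the alternative pathway, Cfp, which encodes the stabiliser properdin, fell by 0.54 ± 0.11 (SE) on the log2 scale (edgeR adjusted p = 0.00108). Cfb, the factor B gene, had 3 counts in normoxic and 1 in OIR libraries. Of the membrane and fluid regulators, Cr1l, the mouse Crry gene, rose 1.53-fold and Clu 1.25-fold, while Susd4 fell by 0.37 on the log2 scale (edgeR adjusted p = 0.00163, 0.00638 and 4.7e-05). Cr1l did not pass with the lens covariate (edgeR adjusted p = 0.0555). The genes of the membrane attack complex and C5 had few counts, apart from C8g. Hc, the mouse C5 gene, had 9 and 17 counts, C6 had 0, C7 had 2 and 5, C8a had 6 and 3, C8b had 23 and 15 and C9 had 1 and 0 in normoxic and OIR libraries. C8g, the only one tested, did not pass (log2 fold change -0.21 ± 0.16 SE, edgeR adjusted p = 0.379). The others were not tested.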

How the data were processed

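Libraries were made from polyadenylated retinal RNA, per the labels' protocols. The submitters' processing notes name HISAT2 version 2.0.5, Trimmomatic, HTSeq and the build GRCm39 with no role or order. The annotation release and strand setting were not given in the sources used here. Per the file headers, 1 deposited table holds whole-number counts, FPKM and the length of each gene.

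The 10 genes, lists and alternatives were chosen with earlier results of these data known. Counts were tested with edgeR version 4.0.16 in R version 4.3.3: filterByExpr (minimum count 10, total 15), TMM scaling, quasi-likelihood test, Benjamini-Hochberg adjustment and a threshold of 0.05. Levels are CPM with TMM scaling, and SEs were taken from the quasi-likelihood F. Alternatives used DESeq2 version 1.42.0 and limma version 3.58.1. All 10 genes were named, of other complement lists the 3 with the smallest adjusted p past the threshold, and of marker lists the 3 with the highest mean FPKM; other genes were named after their values were seen, and some genes that the rule names are not reported here. No 2 libraries of a group looked like 1 deposited again (chi-square over degrees of freedom 3.06 to 15.6 for 30 pairs). The fit was tested on simulated data.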

Additional observations from a re-analysis of the deposited data

Results flagged for a closer look

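In a check of 42 groups of 6 libraries, which by chance picks out about 1 in 20, 1 library stood far from the others. It was OIR replicate 6 for C1qa, at 23.19 CPM where the other 5 OIR libraries were at 33.44 to 36.49 CPM.

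The change in OIR differed between replicate numbers 4 to 6 and 1 to 3 by an edgeR test of the interaction in the genes given here. For C3ar1 the change was smaller in 4 to 6 by a log2 difference of -1.57 ± 0.41 (SE, adjusted p = 0.0196). Cd93 differed by -0.49, Clu by 0.32 and Susd4 by 0.26 on the log2 scale. The test passed in 8.21% of all genes tested. The sets of numbers were taken from earlier results of these data, so these differences are given as a description.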

How the results depend on the processing

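All 10 genes were called higher under the 12 fits that left out 1 library each (14.6 to 16.7% of the genes tested rose there), under median-of-ratios factors, library totals only, no filter, robust dispersion, a block for the set of replicate numbers, DESeq2 and limma on log2(FPKM + 1) or log2(FPKM + 0.1). The count was 9 with the lens covariate, within either set of replicate numbers and with paralogs summed, C1s1 being lost each time, and 7 where a mean FPKM of at least 1 left C1ra, C1s1 and C5ar1 untested. Of the other complement genes, 9 to 12 rose and 2 to 3 fell without 1 library each, 6 rose with the lens covariate and 4 fell within replicate numbers 4 to 6. C4a reversed without normoxic replicate 4, OIR replicate 1 or OIR replicate 3, at -0.045, -0.045 and -0.011, never past the test; the cause was not tested. With the replicate number as a block, 10 of the 10 genes and 10 others rose and 3 others fell. The numbers share no stated source, and deviations of same-numbered libraries correlated at -0.03 to 0.13, with 2 of 6 normoxic libraries closest to their own number. C5ar1, with the fewest counts of the 10, had the largest SE.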

Other observations

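For each of the 10 genes, the genes most like it were sought among 16075 tested genes with a mean of at least 1 CPM, by Pearson's r of log2(CPM + 1) deviations from the group means over 12 libraries. The highest r for a gene ranged from 0.88 to 0.96, and with so many candidates values of this size are given as a description only. The interferon-stimulated genes Ifit1 and Samd9l were nearest to C1qb (r = 0.94 and 0.93), followed by Ccl25 (0.91). Neither was among the 3 nearest to the other chains. These were Prdm15, 2610005L07Rik and Saxo2 for C1qa (r = 0.92, 0.92 and 0.90). For C1qc they were Atp10d, Stk16 and Als2cl (r = 0.88, 0.87 and 0.87). Nearest to C1ra, C1s1, C3 and C5ar1 were Kbtbd7, Mns1, Gm21811 and Tubgcp6 (r = 0.88, 0.93, 0.96 and 0.90). Lyz2, the macrophage lysozyme gene, was second for C3ar1 (r = 0.94), between Fras1 and Rbbp8. St8sia1 and Zfyve28 were nearest to C4b (r = 0.96 for both), and Pcdhb17, Tsku and Ahnak to Serping1 (r = 0.94, 0.94 and 0.93).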
